A study of Mus musculus with 26 samples.

Results

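The 4 secondary osteosarcomas of the mouse series were each compared with the primary osteosarcoma that shares their tumour number in the labels, which was taken as their origin. The pairs carry the tumour numbers 29, 64, 66 and 94, and a secondary tumour was matched to the primary tumour of the same number, which gave 8 of the 26 samples of the series and 4 within-pair differences. The series also holds 11 other primary osteosarcomas, 4 osteosarcoma cell lines and 3 cultures of wild-type osteoblasts differentiated in vitro, each measured on 1 array. The secondary tumours 29, 64 and 94 are labelled as secondary transplants. The secondary tumour 66 has a source label of tumour tissue grown from an osteosarcoma cell line, while its title calls it a cell line, so its path from the primary tumour included growth in culture. The secondary tumours carry the prefix OPflR in their titles, and the labels give no meaning for it. All 8 tumours are described only as coming from a mouse model. The genotype, any Cre driver, the strain and age of the animals, the transplant host and site, the number of passages and any treatment are not stated in the labels.

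Osteosarcoma is a malignant tumour of bone whose cells make osteoid, the collagen-rich matrix that osteoblasts mineralise. A tumour taken from bone also holds cells of the host, such as macrophages, endothelium and fibres of the muscle it grew into, and a transplanted tumour takes such cells from its new host. In these bulk samples fewer cells of a type and less RNA per cell cannot be told apart.

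Values are given as levels in log2 intensity, so a difference of 1 is a 2-fold difference. Intensities were raised to a floor of 12.5, which is 3.64 on the log2 scale, and a value at the floor is only an upper bound. The 8 arrays had median intensities of 54.9 to 58.8 and 18.8% to 19.7% of their values at the floor. The 5′ over 3′ signal ratio of the Gapdh control probe sets, a measure of RNA integrity and of the length of the copied RNA, was 0.810, 0.755, 0.656 and 0.737 in primary tumours 29, 64, 66 and 94. It was 1.08, 0.920, 0.839 and 0.904 in their secondary tumours, higher in each pair and without overlap between the groups. The corresponding ratio for beta-actin was 0.706 to 0.785 in the primary and 0.795 to 0.942 in the secondary tumours, again without overlap. This difference runs alongside every comparison of secondary with primary tumours below, and its part in them was not tested.

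Each secondary tumour was most like its own primary tumour. The deviation of each gene from the mean of its group was correlated across 11786 genes between the 4 secondary and all 15 primary tumours, a description over genes, which are not independent replicates. Secondary 94 correlated at r = 0.66 with its own primary and at most at 0.23 with another, and secondary 29 at 0.48 against 0.16. Secondary 64 correlated at 0.33 with its own primary against 0.23 for primary 183, and secondary 66, the tumour that passed through a cell line, at 0.24 against 0.16 for primary 331. The own primary ranked first of 15 in all 4.

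**Figure D1:**
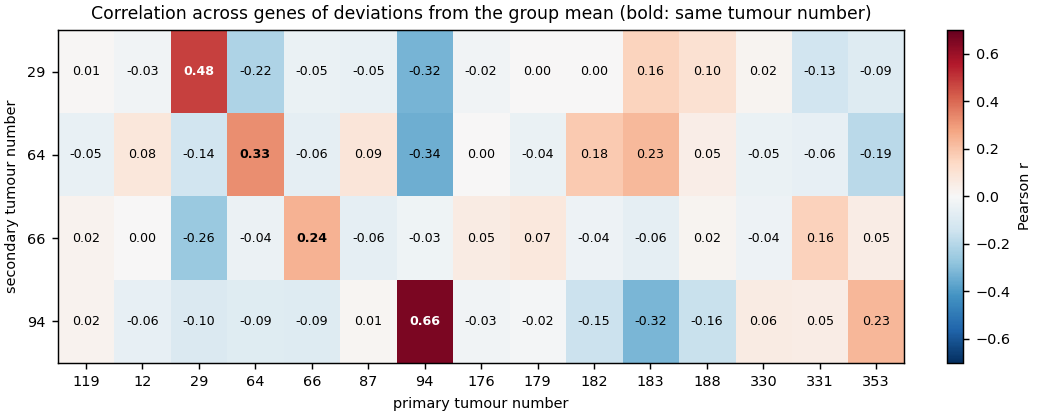
Pearson correlation across genes between the deviations of each secondary tumour (rows, tumour number) from the mean of the secondary tumours and those of each primary tumour (columns, tumour number) from the mean of the primary tumours. The highest value of each row is that of the same tumour number, from 0.66 for tumour 94 down to 0.24 for tumour 66.

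Single genes that set a primary tumour apart were followed into the secondary tumours. Slc6a2, which encodes the noradrenaline transporter, stood at 12.25 in primary 29 against at most 8.90 in the other 14 primaries, and at 8.77 in secondary 29 against at most 6.86 in the other 3 secondaries. Nr2f2, an orphan nuclear receptor, stood at 9.64 in primary 29 and 9.21 in its secondary, with the others at most at 7.55 and 7.72. Both genes thus marked tumour 29 before and after transplantation.

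In tumour 64 the marks were mixed. Sall1, a zinc finger factor of limb and kidney development, was at 7.77 in the primary and 7.27 in the secondary, against at most 5.66 and 6.06 elsewhere. The cartilage collagen Col9a1 was at 9.50 in the primary and 10.79 in the secondary, against at most 8.09 and 6.01. Acan, the large proteoglycan of cartilage, was highest in primary 64 at 10.14, but at 8.65 secondary 64 lay below the 9.04 of another secondary tumour.

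Tumour 94 was marked by Oca2, a melanosomal transport protein, at 8.06 in the primary and 8.41 in the secondary, and by the anchoring fibril collagen Col7a1 at 10.97 and 10.77. In tumour 66 the leading mark was not kept. Cxcl9, a chemokine induced by interferon gamma, was at 9.22 in primary 66 against at most 6.32 in the others, and at 5.60 in secondary 66 against as much as 7.95 in another secondary tumour. Naa30, a subunit of an N-terminal acetyltransferase, was at 9.23 in primary 66 and 7.22 in its secondary, which was still the highest of the 4.

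Counted over all genes at least 2-fold above every other primary, the own secondary tumour was the highest of the 4 for 30 of 33 genes in tumour 29, 6 of 10 in tumour 64, 13 of 18 in tumour 66 and 15 of 16 in tumour 94. Over all genes the own secondary was the highest for 28.8%, 30.2%, 18.9% and 22.0%.

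Sex-linked transcripts gave a further check on the pairs. Xist, the transcript of the inactive X chromosome, was at 13.04 in primary 64 and 12.98 in secondary 64, and at 5.57 to 7.04 in both members of the other pairs. The Y-linked Uty was at 7.72 to 9.06 in the other pairs and at the floor in primary 64, but at 5.16 in secondary 64. Eif2s3y, also Y-linked, was at the floor in primary 64 and at 5.05 in secondary 64, against 7.49 to 8.23 in the other 6 arrays. The other 3 Uty probe sets stood at 3.64, 3.79 and 4.72 in primary 64 and at 3.72, 4.42 and 4.49 in secondary 64. The second Eif2s3y probe set stood at 5.12 and 4.49, and those of the Y-linked Kdm5d at 5.73 and 5.79 in primary 64 and at 6.06 and 5.73 in secondary 64, with 1 more at the floor in both. In primary 29 that Eif2s3y probe set stood at 5.24 and those of Kdm5d at 5.58 and 5.71, so they did not set primary 64 apart. All Uty probe sets and the first of Eif2s3y were lower in primary 64 than in primaries 29, 66 and 94. Of these, only the Uty probe set at 4.72 was not higher in secondary 64, and the rise ran from slight (3.64 to 3.72) to 3.64 against 5.16. Xist was nearly as high in both members of pair 64.

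Paired differences over the 4 tumours were tested for each gene with limma, which pools the spread over all genes. A gene was called when its Benjamini-Hochberg adjusted p was below 0.05 and its mean difference at least 2-fold. Of 11786 genes 3 were called, which is 0.0255% of those tested: Ang rose (1 gene, 0.00848%), and Zbtb16 and Tsc22d3 fell (2 genes, 0.017%). An unadjusted p below 0.05 was reached by 1426 genes (12.1%), of which 627 (5.32%) were higher and 799 (6.78%) lower in the secondary tumours. By a count with no test, 2 genes (0.017%), Ang and Ccn3, were at least 2-fold higher in all 4 pairs, and 17 genes (0.144%) were at least 2-fold lower in all 4. With 4 pairs an exact two-sided sign-flip test on a single gene cannot go below p = 0.125, so a call here rests on the spread that limma shares between genes. Each tumour was measured once, so the p-values measure the spread between these 4 tumours. Without tumour 66 or tumour 94 none of the 3 genes was called, with differences of −3.82 and −3.71 for Zbtb16, −2.37 and −2.42 for Tsc22d3 and 1.92 and 2.05 for Ang; Ang was also not called without tumour 29 (1.94).

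Zbtb16 showed the largest called difference. It encodes a zinc finger repressor, also known as PLZF, that is induced by glucocorticoids in many cell types. Its level was 10.79, 9.57, 9.71 and 9.64 in primary tumours 29, 64, 66 and 94, and 6.25, 6.70, 5.98 and 5.58 in their secondary tumours. Every primary lay above every secondary, and the differences within pairs ran from −4.54 to −2.87. The mean fell by 3.80 on the log2 scale (SE 0.253, n = 4 pairs, limma adjusted p = 0.00788), from 9.93 ± 0.58 to 6.13 ± 0.47 (SD). The 3 probe sets of the gene that were measured were all lower, with mean differences of −4.44 to −2.33. With the mean of its probe sets the difference was −3.52 (limma adjusted p = 0.0611). On all 26 arrays with tumour number as a random block it was −3.07 (limma adjusted p = 0.0851), and Zbtb16 was called in neither setting. With no filter on the probe sets it was not called either (limma adjusted p = 0.0547). Among all 15 primary tumours Zbtb16 ran from 5.66 to 10.79, and primaries 353, 330 and 183, with 5.66, 6.17 and 6.60, lay within the range of the secondary tumours. These 3 were on arrays of the higher bioB to bioC ratio (1.19, 1.12 and 1.04). Primaries 12, 87 and 119, on arrays of the lower ratio, stood at 7.83, 9.63 and 10.48, above every secondary tumour. Primaries 176, 179, 182, 188 and 331 were on arrays of the higher ratio too. They stood at 8.93, 9.14, 9.99, 7.84 and 9.71, also above every secondary tumour. The cell lines stood at 5.03 to 5.73 and the cultured osteoblasts at 8.40 to 8.45.

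Tsc22d3 encodes GILZ, a leucine zipper protein that is a standard readout of glucocorticoid receptor activity. Its level was 12.22, 11.84, 10.88 and 12.44 in primary tumours 29, 64, 66 and 94 and 9.54, 9.39, 8.74 and 10.46 in the secondary tumours. The groups did not overlap, and the 4 differences within pairs ran from −2.68 to −1.98. The mean fell by 2.31 (SE 0.147, limma adjusted p = 0.00788), and without the pairing the limma adjusted p was 0.31, where the SD among the 4 primaries was 0.69. With the mean of its probe sets the difference was −1.34 (limma adjusted p = 0.0633), and on all 26 arrays with tumour number as a random block −1.63 (0.364), neither called. One other probe set of the gene fell by 2.21 and the remaining one had a mean difference of 0.51, so the probe sets do not all move together. Among the 11 other primaries Tsc22d3 ran from 7.90 to 12.42.

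Ang was the 1 gene called higher. It encodes angiogenin, a secreted ribonuclease that promotes vessel growth. Its level was 4.44, 4.42, 4.55 and 4.28 in the primary and 6.37, 6.66, 6.53 and 5.86 in the secondary tumours 29, 64, 66 and 94. The primaries lay close together and near the floor, and each secondary was at least 1.58 above its own primary. The mean rose by 1.93 (SE 0.138, limma adjusted p = 0.00864), and the second probe set differed by 1.71. With the floor raised to the 40th percentile the difference was 1.30 and no longer called (limma adjusted p = 0.0647). No other primary tumour exceeded 4.78 and no cell line 4.62, so the secondary tumours were the highest of all tumour samples, while the osteoblast cultures reached 7.79 to 8.26. The chosen probe set belongs to a type that can also bind transcripts of related genes, and the angiogenin family has several close copies in the mouse, so which member was measured is uncertain.

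**Figure D2:**
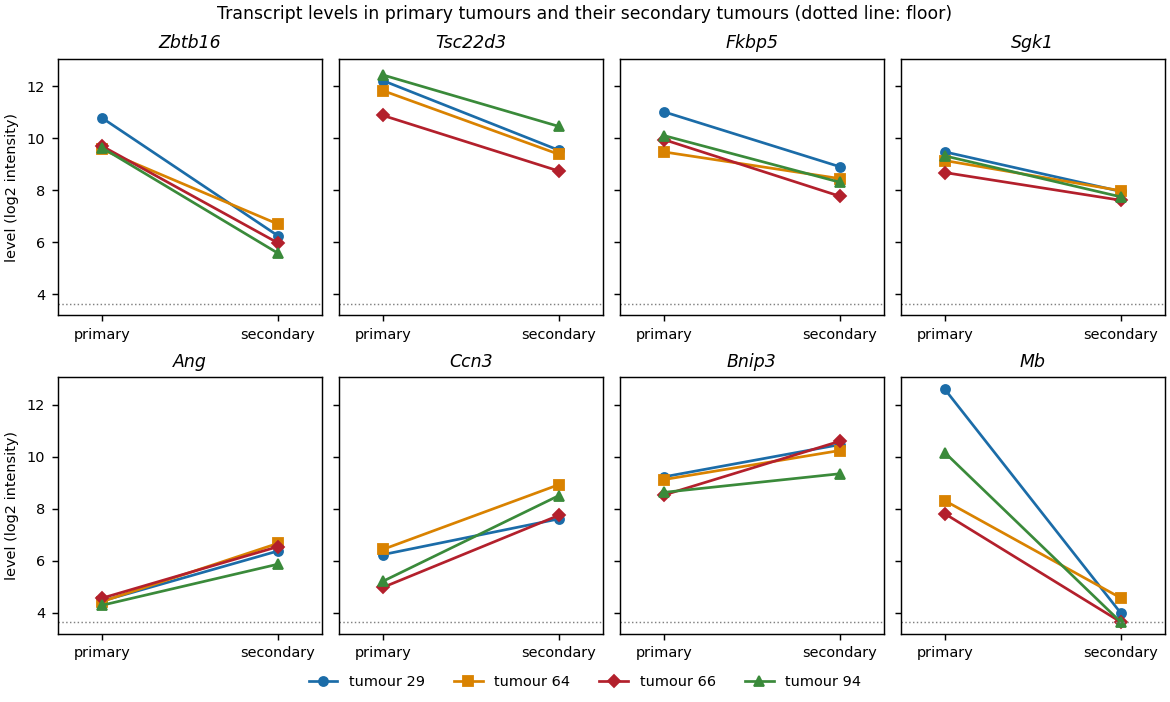
Levels in log2 intensity (vertical axis) of 8 genes in the primary and the secondary tumour of each pair, joined by a line per tumour number. Zbtb16 and Tsc22d3 lie lower and Ang higher in all 4 secondary tumours and are called; Fkbp5, Sgk1, Ccn3, Bnip3 and Mb lie on one side in all 4 pairs and are not called.

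Both genes that fell are known glucocorticoid targets, so a list of 24 such targets was drawn up after their values had been seen. Glucocorticoids enter the cell and activate a nuclear receptor that raises the transcription of feedback regulators and metabolic enzymes. Of 22 list genes tested, 2 were called lower and 0 higher, and 14 were lower in all 4 pairs against 11% of all genes; 0 were higher in all 4 against 9.89%. The median difference was −0.85, with −0.86, −0.63, −0.64 and −0.84 in pairs 29, 64, 66 and 94, against −0.01 over all genes. As the list was written with these values in view, its count describes the genes and is no test.

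Among the members not called, Sgk1, Mertk and Fkbp5 had the lowest p-values. Fkbp5, a co-chaperone that lowers the receptor's affinity for hormone, was at 11.02, 9.48, 9.95 and 10.11 in the primary and 8.91, 8.45, 7.77 and 8.31 in the secondary tumours (mean difference −1.78, SE 0.203, limma adjusted p = 0.0718). Sgk1, a kinase that regulates ion channels, was at 9.48, 9.14, 8.68 and 9.32 against 7.96, 7.98, 7.62 and 7.75 (−1.33, SE 0.135, limma adjusted p = 0.0668). Neither passed the threshold, although in both genes every primary lay above every secondary. In a test of every probe set the same Sgk1 probe set was called (limma adjusted p = 0.0447).

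The receptor kinase Mertk, which takes part in the uptake of dying cells, was 10.71 to 11.49 in the primary and 9.34 to 9.77 in the secondary tumours (−1.38, limma adjusted p = 0.0718). The circadian repressor Per1 differed by −1.18, the transcription factor Klf9 by −1.02 and glutamine synthetase Glul by −1.45. All 3 were lower in each pair and none was called. The metallothioneins Mt1 and Mt2, which bind metal ions, differed by −1.45 and −1.83, but by only −0.14 and −0.17 in pair 64. Other targets stood apart from this pattern: Pdk4 differed by 0.30, Errfi1 by −0.08 and Foxo3 by −0.06, with no common side.

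The mean level of the list was 9.01 to 10.10 in the 4 matched primaries and 8.15 to 8.79 in the secondary tumours, without overlap. Across all 15 primaries it ran from 7.74 to 10.21, and primaries 330 and 353, with 7.74 and 7.99, lay as low as the secondary tumours. Both were on arrays of the higher bioB to bioC ratio. Primaries 12, 87 and 119, on arrays of the lower ratio, stood at 9.16, 10.21 and 10.01, above every secondary tumour. Primaries 176, 179, 182, 183, 188 and 331 were on arrays of the higher ratio too. They stood at 9.14, 9.74, 9.24, 8.85, 9.30 and 8.89, also above every secondary tumour. In the 250 bases before the gene start, the glucocorticoid receptor half-site AGAACA, read on both strands, was present in 2 of the 19 list genes with a promoter sequence, against 16.2% of all genes. Zbtb16 had no promoter sequence here, and sites outside these 250 bases were not read. The count therefore does not show whether the receptor acts on these genes.

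Transcripts of adult skeletal muscle had the largest median difference of the lists examined. Muscle fibres are packed with contractile proteins, which these genes encode. Of 20 marker genes 16 were tested; 13 were lower in all 4 secondary tumours against 11% of all genes, 10 at least 2-fold lower in all 4 against 0.144%, and 0 were called. The pairs differed widely in size. The median difference was −3.68, made up of −6.54, −2.31, −1.33 and −5.11 in pairs 29, 64, 66 and 94.

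Mb, the oxygen-binding myoglobin, was at 12.60, 8.31, 7.81 and 10.16 in the primary tumours and 3.99, 4.57, 3.64 and 3.64 in the secondary tumours, of which the last 2 were at the floor (limma adjusted p = 0.0807). Myh1, a fast myosin heavy chain, was at 12.69, 8.54, 8.30 and 11.39 against 3.64, 5.56, 4.01 and 3.64 (limma adjusted p = 0.143). The troponin Tnnt3 was at the floor in all 4 secondary tumours and at 10.86, 6.80, 5.64 and 9.06 in the primaries, so its difference of −4.45 is a bound, at least that large in these samples. Primary 29 was the richest in all 3 genes and primary 66 the poorest.

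Myh2, Mylpf, Myl1, Tnnc2 and Tnni2, all of fast fibres, differed by −4.95, −5.32, −4.98, −4.75 and −4.0. The giant sarcomere protein Ttn differed by −3.61 and the perinatal myosin Myh8 by −2.85. Of the 4 secondary tumours, 2 were at the floor for Mb, Myh1 and Mylpf and 3 for Tnnc2, Tnni2 and Myh8, so these differences are bounds in part and may be larger. The slow myosin Myh7 differed by −0.02 and the enolase Eno3 by −0.27, on no common side.

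The mean of the 16 markers was 6.71 to 10.80 in the matched primaries and 4.82 to 5.21 in the secondary tumours, next to 5.29 to 5.37 in cultured osteoblasts and 5.14 to 9.04 in the cell lines. The list is thus not specific to muscle fibres in this series: Mylpf had a median of 9.64 in the 4 cell lines and Tnnc2 one of 9.13. Summed over the 16 markers, the intensity was 47930.9, 3777.4, 2197.0 and 12875.2 in primary tumours 29, 64, 66 and 94 and 661.6 to 1196.4 in the secondary tumours. Muscle signal varied as widely among the 15 primaries, with list means from 5.0 to 10.85. The embryonic muscle list had 5 of 15 genes tested, of which 3 were lower in all 4 pairs, against 11% of all genes. Des, the intermediate filament of muscle, differed by −2.31 and cardiac Tnnt2 by 0.25.

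The muscle list median, Zbtb16 and Tsc22d3 were all lower in every secondary tumour. Pair 29 had the largest fall in each of them, and the order of the other pairs differed. In pairs 29, 64, 66 and 94 the muscle median differed by −6.54, −2.31, −1.33 and −5.11. Zbtb16 differed by −4.54, −2.87, −3.73 and −4.06, and Tsc22d3 by −2.68, −2.45, −2.14 and −1.98. The part of the muscle signal in the fall of these genes was not tested. Over the 15 primaries the Pearson correlation of the muscle mean was 0.35 with Zbtb16 (permutation p = 0.204, adjusted 0.245; Spearman rho 0.17, p = 0.55), 0.49 with Tsc22d3 (p = 0.0612, adjusted 0.199; rho 0.49, p = 0.0665) and −0.39 with Ang (p = 0.146, adjusted 0.222; rho −0.39, p = 0.148), over 6 relations and 100000 permutations. Without the 2 tumours farthest from the median muscle mean the Pearson values were 0.23, 0.44 and −0.36. None passed the threshold. These values come from 15 primaries on arrays of both bioB to bioC ranges and not from the pairs, so they do not decide the part of the muscle signal.

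**Figure D3:**
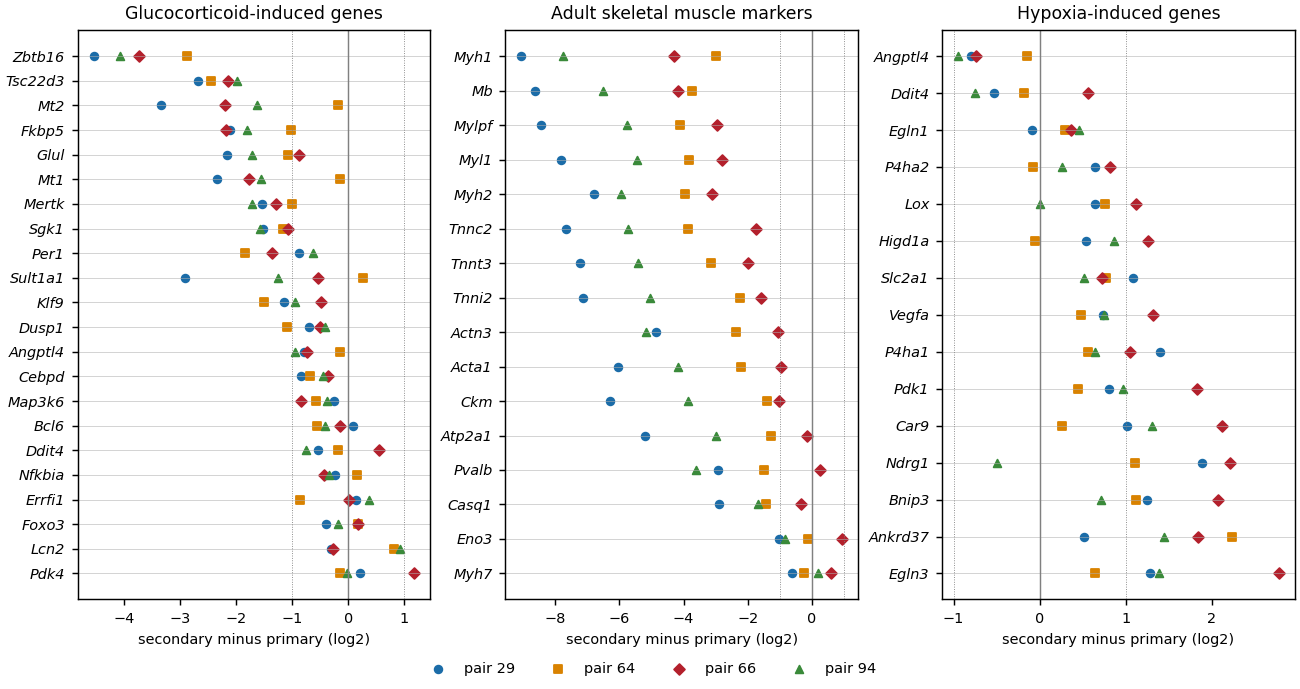
Secondary minus primary difference in log2 intensity (horizontal axis) of every tested gene of 3 lists, with 1 point per pair and dotted lines at a 2-fold difference. Muscle markers differ most in pairs 29 and 94 and least in pair 66, while the glucocorticoid-induced Zbtb16, Tsc22d3, Fkbp5 and Sgk1 lie more than 1 below 0 in all 4 pairs and 8 hypoxia-induced genes lie above 0 in all 4.

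Genes induced by low oxygen lay on the other side. When oxygen falls, hypoxia-inducible factors escape degradation and bind the core sequence ACGTG in the promoters and enhancers of genes for glucose uptake, glycolysis and vessel growth. Of 15 list genes tested 0 were called; 8 were higher in all 4 secondary tumours and 1 was lower, against 9.89% and 11% of all genes, and 13 had an unadjusted p below 0.05 against 12.1%. The median difference was 0.82, with 0.73, 0.48, 1.26 and 0.64 in pairs 29, 64, 66 and 94.

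Of the 8 genes that were higher in all pairs, Bnip3, Ankrd37, Slc2a1, P4ha1, Egln3 and Car9 hold that core sequence within 250 bases before the gene start, and Vegfa and Pdk1 do not. The first 4 are shown as examples (RefSeq, build GRCm38.p6, 5′ to 3′ on the gene's strand, with each ACGTG or its reverse complement CACGT in capitals). Bnip3 lies on the minus strand at chr7:138909507-138909756, Ankrd37 on the minus strand at chr8:45999851-46000100, Slc2a1 on the plus strand at chr4:119108495-119108744 and P4ha1 on the plus strand at chr10:59323046-59323295.
Bnip3: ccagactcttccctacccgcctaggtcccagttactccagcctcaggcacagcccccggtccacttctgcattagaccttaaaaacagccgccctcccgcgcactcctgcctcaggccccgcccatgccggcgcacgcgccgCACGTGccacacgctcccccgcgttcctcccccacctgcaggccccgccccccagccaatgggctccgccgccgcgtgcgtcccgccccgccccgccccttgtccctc
Ankrd37: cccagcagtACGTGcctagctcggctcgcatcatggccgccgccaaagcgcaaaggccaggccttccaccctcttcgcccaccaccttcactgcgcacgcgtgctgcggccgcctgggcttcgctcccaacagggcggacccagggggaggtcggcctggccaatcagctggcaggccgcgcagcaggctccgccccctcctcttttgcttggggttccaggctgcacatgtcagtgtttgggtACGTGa
Slc2a1: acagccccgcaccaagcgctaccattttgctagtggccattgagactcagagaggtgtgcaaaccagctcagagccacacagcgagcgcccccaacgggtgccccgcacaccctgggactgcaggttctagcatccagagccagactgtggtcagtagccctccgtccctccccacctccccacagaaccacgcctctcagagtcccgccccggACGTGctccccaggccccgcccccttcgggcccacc
P4ha1: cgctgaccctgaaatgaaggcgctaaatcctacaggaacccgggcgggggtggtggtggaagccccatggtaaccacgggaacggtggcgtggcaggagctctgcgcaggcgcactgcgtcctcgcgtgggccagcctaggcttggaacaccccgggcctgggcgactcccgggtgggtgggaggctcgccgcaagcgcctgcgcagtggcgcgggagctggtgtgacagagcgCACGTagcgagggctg

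In Bnip3 the matches on the 2 strands overlap and start at −108 and −107. In Ankrd37 they start at −241 and −6, in Slc2a1 at −36 and in P4ha1 at −16, counted from the gene start. Of the 12 list genes with a promoter sequence 9 held the core, against 16.6% of all genes. A match is a stretch of letters and does not show that a factor bound there.

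The regulators of the response are given first. Egln3, a prolyl hydroxylase that marks the hypoxia-inducible factors for degradation and is itself induced by them, was at 6.99, 6.67, 5.86 and 5.92 in the primary and 8.27, 7.31, 8.63 and 7.31 in the secondary tumours (mean difference 1.52, SE 0.312, limma adjusted p = 0.222). Ankrd37, an ankyrin repeat protein, was at 5.86, 4.75, 5.28 and 4.47 against 6.38, 6.98, 7.12 and 5.91 (1.51, limma adjusted p = 0.189). In both genes every secondary lay above every primary.

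Bnip3, a mitochondrial protein of autophagy, was at 9.22, 9.12, 8.52 and 8.63 in the primary and 10.46, 10.24, 10.59 and 9.34 in the secondary tumours (1.29, SE 0.214, limma adjusted p = 0.171). Vegfa, the main growth factor for vessels, was at 7.70 to 8.0 against 8.44 to 9.13 (0.82, limma adjusted p = 0.194). Car9, a carbonic anhydrase of the cell surface, was at 5.68 to 6.07 against 5.99 to 7.80, with secondary 66 the highest and secondary 64 within the range of the primaries.

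Slc2a1, the glucose transporter GLUT1, was at 7.61 to 8.03 in the primary and 8.13 to 9.12 in the secondary tumours (0.78, limma adjusted p = 0.18). Its second probe set, in a test of every probe set, differed by 1.34 and was called (limma adjusted p = 0.0141). P4ha1, a collagen prolyl hydroxylase, differed by 0.91 and the kinase Pdk1 by 1.01. Angptl4, which is induced by glucocorticoids as well as by hypoxia, was lower in each pair, by −0.66 in the mean.

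The mean of the list was 8.37 to 8.72 in the 4 matched primaries and 9.19 to 9.65 in the secondary tumours, without overlap. It reached 9.51 among the other primaries, so secondary tumours were above their own primaries but not above all primaries. Of 14 glycolysis genes tested, 5 were higher in all 4 pairs and 0 lower, against 9.89% and 11% of all genes, with a median of 0.40. Pfkl, a phosphofructokinase, differed by 1.04 (limma adjusted p = 0.119), with 1 of its 3 probe sets at −0.16. Slc16a3, the lactate exporter MCT4, differed by 1.52 (limma adjusted p = 0.0807). Among the 11 other primaries the median of Slc16a3 was 9.44, within the 9.02 to 9.69 of the secondary tumours. That of Pfkl was 8.84, below the 9.54 to 9.87 of the secondary tumours. Pgk1 and Ldha, both glycolytic enzymes, differed by 0.88 and 0.49. The rise in Gapdh 5′ to 3′ ratio ran with these genes too.

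Among other genes higher in every pair, Ccn3, a secreted matrix-associated regulator formerly called Nov, was at 6.23, 6.43, 4.97 and 5.20 in the primary and 7.60, 8.92, 7.74 and 8.50 in the secondary tumours. The groups did not overlap, and the difference of 2.48 (SE 0.286, limma adjusted p = 0.0718) missed the threshold. No primary tumour of the 15 exceeded 6.57, while osteoblasts stood at 12.22 to 12.29 and cell lines at 5.41 to 10.92. Aqp5, a water channel of glands and lung, was at 6.60, 4.43, 6.43 and 6.69 against 10.31, 5.26, 8.35 and 8.56 (2.08, limma adjusted p = 0.197). Of 7 lung epithelium markers tested, Aqp5 included, 2 were higher in all 4 pairs, against 9.89% of all genes. The list median was 0.02, with the surfactant gene Sftpb at −0.11.

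Eif2ak4, the kinase GCN2 that senses amino acid shortage, was at 5.29, 5.21, 5.32 and 5.74 in the primary and 6.51 to 6.52 in the secondary tumours (1.12, limma adjusted p = 0.0718), but its other probe set differed by 0.12. Among the 11 other primaries Eif2ak4 had a median of 6.94 and reached 7.87, so the secondary tumours were above their own primaries but not above all primaries. Rpgrip1, a cilium protein, differed by 1.22, Tfpi2, a protease inhibitor of the matrix, by 0.95, Lims2, a focal adhesion protein, by 0.81, and Mr1, which presents vitamin metabolites to T cells, by 0.70. None was called. Lims2 had a median of 8.18 among the 11 other primaries, above the 6.97 to 7.46 of the secondary tumours. For Rpgrip1, Tfpi2 and Mr1 the medians of those primaries were 5.27, 5.17 and 6.72, below the secondary medians of 6.51, 6.82 and 7.23.

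MHC class II genes, which present peptides to helper T cells and mark dendritic cells, B cells and activated macrophages, divided the pairs. H2-Aa was at 8.72, 9.94, 10.49 and 8.34 in primary tumours 29, 64, 66 and 94 and at 10.72, 12.10, 9.19 and 9.89 in the secondary tumours. Its invariant chain Cd74 was at 8.83, 9.91, 10.24 and 8.32 against 10.54, 11.87, 8.93 and 9.61. Both genes were higher in the 3 transplants and lower in secondary 66.

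H2-Ab1 and H2-Eb1 did the same, and these 4 were the only genes of 11786 (0.0339%) that were at least 2-fold higher in each transplant and at least 2-fold lower in secondary 66; 0 genes showed the reverse. The median of 7 class II genes was 1.71, 1.92, −1.23 and 1.16 in pairs 29, 64, 66 and 94. With 1 secondary tumour from a cell line, the difference between it and the transplants could not be tested. Ciita, the activator of class II transcription, differed by −0.10 and the peptide exchanger H2-DMa by 0.76.

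In pair 66 the medians were lower for other immune and growth lists as well. Interferon-induced genes had a median of −0.79 there against 0.02, 0.09 and −0.10 in pairs 29, 64 and 94, and class I genes −0.58 against 0.34, 0.60 and 0.40. Primary 66 had the highest interferon and class II list means of all primaries (8.64 and 8.55) and a class I mean of 9.47. Secondary 66 lay within the range of the other secondary tumours for interferon (7.70) and class I genes (8.88). It was the lowest of them for class II (7.77) and mitosis genes (8.40). Mitosis genes had −0.61 against 0.41, 0.28 and 0.73. Mki67, the standard marker of cycling cells, was at 10.15, 9.31, 9.91 and 8.72 in the primary and 10.08, 9.59, 9.17 and 9.24 in the secondary tumours, with a mean difference of −0.00 and no common side. B2m, the light chain of class I, was higher in all 4 pairs (0.50, limma adjusted p = 0.248).

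**Figure D4:**
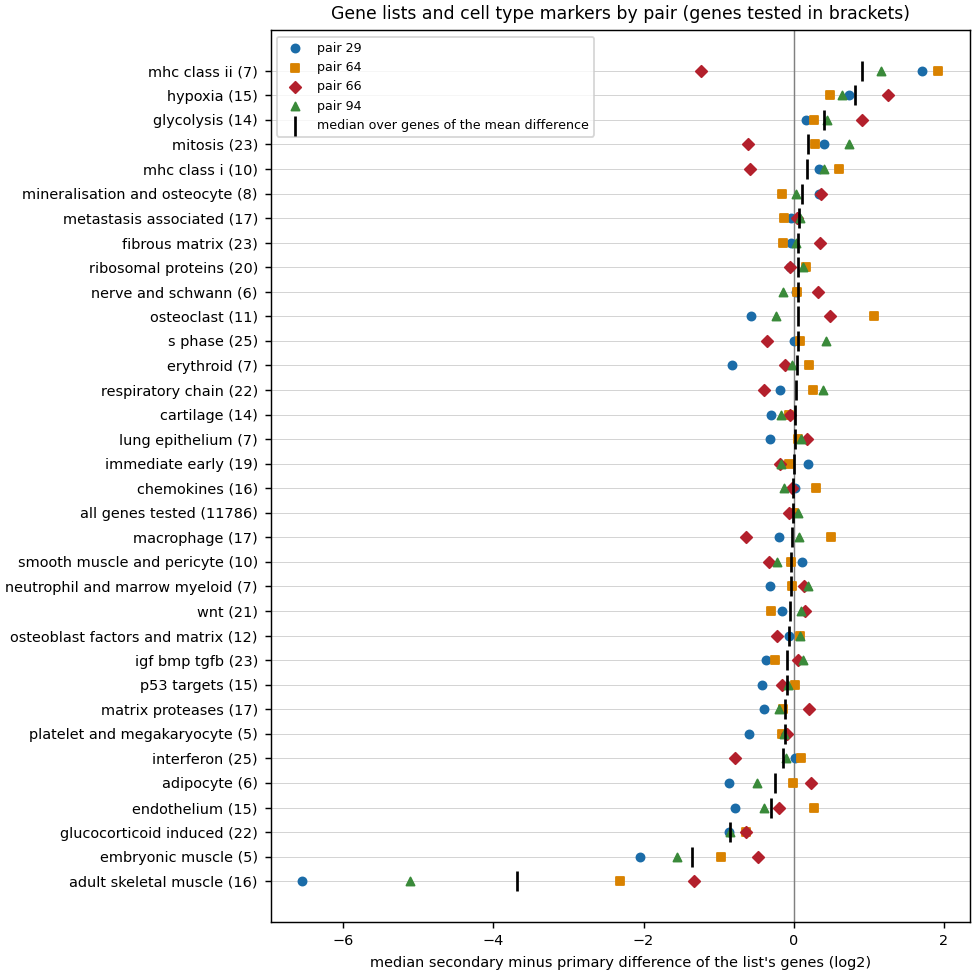
Median secondary minus primary difference in log2 intensity (horizontal axis) over the tested genes of each list with 5 or more such genes, with 1 point per pair and a black bar for the median of the mean differences. Muscle markers lie lowest, glucocorticoid-induced genes lie lower and hypoxia genes higher in each pair, and MHC class II and mitosis genes of pair 66 lie opposite to the other pairs.

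No gene of the osteoblast lists was called. The bone factor Sp7 was at 10.59, 10.94, 10.50 and 9.96 in the primary and 10.73, 11.05, 10.36 and 10.21 in the secondary tumours, a difference of 0.09 (SE 0.118, limma adjusted p = 0.796). Type I collagen Col1a1 differed by −0.09, Col1a2 by −0.03, the bone glycoprotein Sparc by −0.04 and alkaline phosphatase Alpl by −0.21. Of 12 genes of the osteoblast list 1 was higher and 1 lower in all 4 pairs, against 9.89% and 11% of all genes. The list median was −0.06, and 4 of the 12 had an unadjusted limma p below 0.05, against 12.1% of all genes. Bone sialoprotein Ibsp varied more, with −1.28, 0.50, −0.76 and −2.23 in pairs 29, 64, 66 and 94 and a mean of −0.94. The parathyroid hormone receptor Pth1r differed by −0.62, the adhesion molecule Cadm1 by −0.54 and the osteocyte matrix protein Dmp1 by −0.94, each on no common side. The proteoglycan Omd differed by 0.39 and the phosphate regulator Ank by 0.45.

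No gene of the tumour suppressor and growth pathways examined was called. Cdkn2a, which encodes p16 and p19ARF, differed by −0.12, Rb1 by −0.21, Myc by −0.03 and the p53 target Cdkn1a by −0.48. None had an adjusted p below 0.5. The secreted Wnt antagonist Wif1 differed by −0.08 and the chemokine receptor Cxcr4 by 0.10. Runx2, Bglap, Spp1 and Trp53 were not measured under a probe set named here. Of 17 genes linked to invasion and metastasis 0 were called, with 3 higher and 3 lower in all 4 pairs, against 9.89% and 11% of all genes. Vim, the mesenchymal intermediate filament, differed by 0.13, the calcium-binding S100a4 by 0.09, and the membrane linker Ezr was lower in each pair, by −0.81 in the mean (limma adjusted p = 0.228).

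Markers of stromal and blood cells did not shift together. Macrophage markers had a median of −0.03 over 17 genes, made up of −0.20, 0.50, −0.64 and 0.07 in pairs 29, 64, 66 and 94. Csf1r, the receptor that macrophages need to survive, differed by 0.02 and lysozyme Lyz2 by −0.10 in the mean. Endothelial markers had a median of −0.30, with −0.79, 0.26, −0.20 and −0.40 in the same pairs, and Kdr, the main receptor for Vegfa, differed by −0.37. Osteoclast markers had a median of 0.06, with −0.57, 1.08, 0.48 and −0.23, so a median near 0 can hold opposite shifts. Medians lay between −0.30 and 0.06 for the 15 marker lists other than adult muscle, with 0 genes called in any of them. The haemoglobin gene Hbb-b2 was lower in each pair, by −0.97 in the mean. Among the immediate early genes, Ccn2, a matrix-associated growth regulator, was at 11.78, 10.93, 9.63 and 10.21 against 10.49, 10.09, 8.81 and 8.94 (−1.05, SE 0.136, limma adjusted p = 0.0807), while the list median was 0.00.

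The pairs differed in the extent of change. Pair 29 had 532 genes at least 2-fold apart, pair 64 had 391, pair 66 had 329 and pair 94 had 270. More genes were lower than higher in each secondary tumour, with 359 against 173 in pair 29 (3.05% and 1.47%), 221 against 170 in pair 64 (1.88% and 1.44%), 203 against 126 in pair 66 (1.72% and 1.07%) and 149 against 121 in pair 94 (1.26% and 1.03%). Across genes the differences of pairs 29 and 94, whose primaries held the most muscle signal, correlated at r = 0.59, and those of the other pairings at 0.09 to 0.28, given as a description.

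To set growth as a secondary tumour beside growth in culture, the change from primary to secondary tumour was compared with the change from primary tumour to cell line. Cell lines 176, 179 and 182 have a primary tumour of the same number, and no sample is shared between these pairs and the 4 secondary pairs. The 7 within-pair differences were tested with limma on 12289 genes. Of these 893 (7.27%) were called, 508 (4.13%) with the higher change in the secondary tumours and 385 (3.13%) with the lower. In 874 of the 893 the secondary tumours were within 2-fold of their primaries on average, and in 766 the cell lines were not. The count was 449, 589, 513 and 564 without tumour 29, 64, 66 or 94.

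Macrophage genes led. C1qc and C1qa, subunits of complement C1q, changed by −6.96 and −7.07 from primary tumour to cell line and by 0.09 and −0.07 from primary to secondary tumour (difference of changes 7.04, SE 0.311, and 6.99, SE 0.325, limma adjusted p = 8.21e-05 for both). In the cell lines both lay at or near the floor, from 3.64 to 4.09. Of 18 macrophage markers 14 were called in this direction, against 4.13% of all genes.

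The macrophage lysozyme Lyz1, the carboxypeptidase Cpz and the Wnt antagonist Wif1 differed the same way, by 6.68, 5.61 and 6.85. Wif1 was at 11.88, 12.76 and 11.44 in primaries 176, 179 and 182 and at 5.14, 3.64 and 6.52 in their cell lines. Against 4.13% of all genes, 5 of 15 endothelial markers, 5 of 12 osteoblast genes and 4 of 7 class II genes were called higher.

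The secondary tumours also did not gain what the lines gained. Ptx3, a secreted pattern recognition protein, changed by 5.03 in the lines and −0.04 in the secondary tumours, and the matrix protein Efemp1 by 3.83, from primaries all at the floor, and −0.51. Tagln, an actin-binding protein of smooth muscle, changed by 3.55 and −0.67, and the tubulin Tubb2b by 4.48 and −0.15. With an intensity trend in the limma fit Ptx3 (adjusted p = 0.17) and Tubb2b (0.0627) were not called. Ankrd1, a stress-induced protein of muscle, changed by 2.38 and −2.43, a difference of −4.81 that was not called without tumour 29, 94, 179 or 182 (−4.64 to −4.13).

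**Figure D5:**
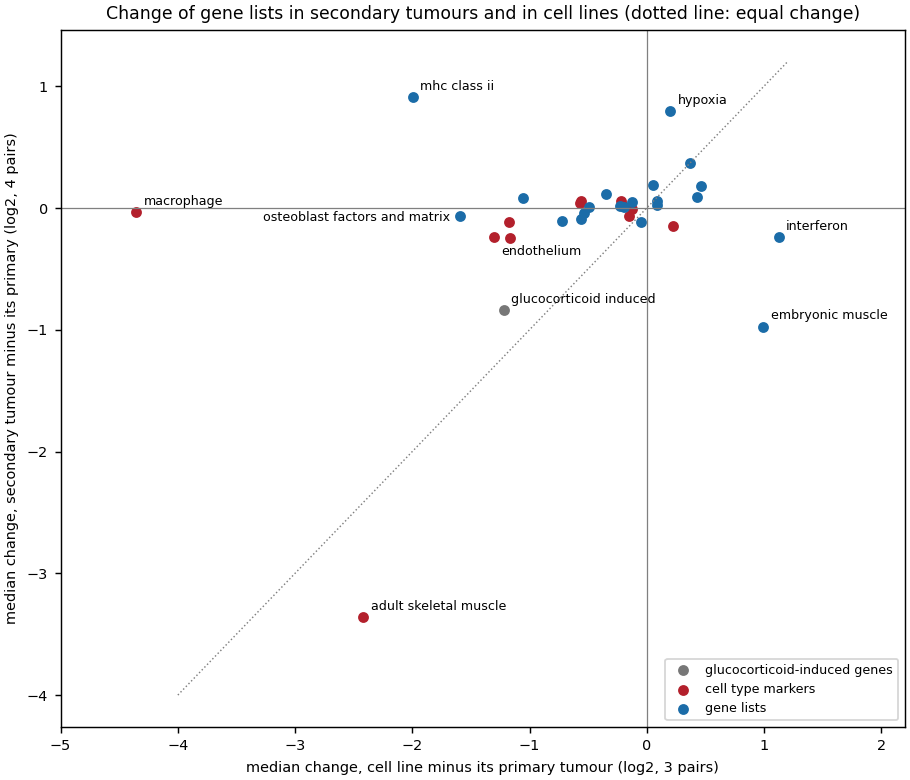
Median change of each gene list with 5 or more tested genes from primary tumour to cell line (horizontal axis, log2, 3 pairs) against the median change from primary to secondary tumour (vertical axis, log2, 4 pairs). Macrophage markers lie at −4.35 and −0.03, far from the dotted line of equal change, while muscle markers are negative on both axes.

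The 3 called genes behaved unlike one another here. Zbtb16 changed by −3.83 in the cell lines and −3.80 in the secondary tumours, a difference of 0.03 (SE 0.388, limma adjusted p = 0.971). Tsc22d3 changed by −3.40 and −2.31, and the smaller change in the secondary tumours passed the threshold (1.09, SE 0.23, limma adjusted p = 0.0262). Ang changed by 0.53 and 1.93, and this difference passed too (1.40, SE 0.277, limma adjusted p = 0.0216). For Ang, primaries 179 and 182 and cell line 179 were at the floor. The change of 0 in line 179 is thus set by the floor, and that of 0.98 in line 182 is a bound. Fkbp5 changed by −2.18 and −1.78 (limma adjusted p = 0.469 for the difference). Sgk1 changed by 0.00, −1.12 and 0.50 and Ccn3 by −0.91, 4.31 and 3.66 in lines 176, 179 and 182.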

How the data were processed

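RNA of 26 samples was copied from its poly(A) end into biotin-labelled cRNA and hybridised to 1-colour arrays, per the labels' protocols. The authors deposited 1 linear intensity per probe set (45101, of which 64 are controls); how they summarised and scaled the arrays is not given in the sources used here, and arrays were used as deposited. Groups and tumour numbers came from the titles and source names.

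Deposited intensities below their 20th percentile (12.5) were set to it before taking log2. Probe sets needed at least 3 of the 8 arrays above the median intensity of the table, 52.6, and the one with the highest mean stood for its gene. Of the probe sets 34945 carried 1 gene symbol, 932 several and 9160 none here; symbols were updated through RefSeq identifiers. limma 3.58.1 in R 4.3.3 fitted log2 intensity on tumour number and secondary status (3 residual degrees of freedom); the cell line comparison used 7 within-pair differences. Adjusted p-values are Benjamini-Hochberg. The fit was tested on simulated data. Same-numbered samples were taken to come from the same tumour, and their deviations from the group means correlated at 0.36 to 0.71, so the pairing was kept in the main analysis. No 2 arrays were copies (at most 0.732% identical values).

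The members, the 37 gene and marker lists and the tests were chosen with earlier results of these data known; the glucocorticoid list was added after the values were seen. Named genes are the called genes, filled to 12 in each direction by the size of the smallest of 4 same-sided differences, a fixed set of bone and tumour genes, the called or the 2 most intense members of each list, the 5 genes by which each primary stands furthest above the others, and the 5 largest called differences in each direction against cell lines; other list members named were chosen after their values were seen. Promoters are RefSeq's, build GRCm38.p6, first start per gene.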

Additional observations from a re-analysis of the deposited data

Results flagged for a closer look

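Among 73 results examined over the 4 pairs, 1 had a pair that stood far from the other 3, and chance gives about 1 in 20. The median of the platelet and megakaryocyte markers was −0.60 in pair 29, against −0.16, −0.09 and −0.13 in pairs 64, 66 and 94, over 5 genes.

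The change from primary to secondary tumour differed from the change from primary tumour to cell line for 893 of 12289 genes by limma. These kinds of pair were on arrays of different bioB to bioC ranges.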

How the results depend on the processing

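The count of called genes, 3 in the main setting, was 1 on all 26 arrays without the replicate block, 1 with tumour number as a random block, 9 with a filter at the 75th percentile, 9 over every kept probe set, 0 with no filter (1804 at an unadjusted p below 0.05) and 0 with the mean of probe sets (1358); the 8 arrays without the replicate block gave 2. Leaving out 1 tumour gave 0 to 4 calls, with 0 without tumour 66 or 94, where Zbtb16 (−3.82 and −3.71), Tsc22d3 (−2.37 and −2.42) and Ang (1.92 and 2.05) kept their size. Leaving out tumours 29 and 94, whose primaries held the most muscle, was added after seeing the data and gave 25 calls and 55 genes at least 2-fold apart in all remaining pairs. Those genes numbered 19 over all 4 pairs, 34 over every probe set and 22 to 39 without 1 tumour (37, 39 and 30 without 64, 66 and 94), since fewer pairs must meet the rule. Against the 11 other primaries the secondary tumours differed by −2.23 in Zbtb16 and −0.84 in Tsc22d3, neither called, while Ang and Ccn3 (2.41) were called higher. Those 11 arrays span both ranges of the bioB to bioC ratio. The 893 genes against cell lines became 2645 over every probe set, 1672 without pairing and 449 to 1329 without 1 tumour (449, 589, 513 and 564 without 29, 64, 66 and 94). In each of these counts secondary tumours and cell lines were on arrays of different bioB to bioC ranges. Of 826 alternative values of single genes 27 lost a call, 15 gained one and 0 called differences turned sign; causes were not tested. The number of arrays limits the precision, and genes near the floor are bounded.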
